A study of Mus musculus with 29 samples.

Results

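The response to loss of Mysm1 was examined across the genome in CD150-negative blood progenitors of the mouse. Members were the 6 of the 29 sequenced libraries that were sorted as CD150-negative and labelled either Mysm1-/-Puma+/- (3 libraries, A1, A2 and A3) or wild type (3 libraries, D2, D3 and D4). They were chosen by these labels, with earlier results of these data known. Bone marrow came from C57BL/6 mice aged 8 to 12 weeks, and cells were gated as Lin-cKit+Sca1+CD150-. The labels give both sexes as pooled and as matched between groups. Libraries labelled Mysm1-/-Puma-/- (3) and Puma-/- (3) of the same population served for a second comparison, as did 4 CD150-positive libraries labelled Mysm1-/-Puma+/- with 4 wild-type ones. The A libraries carry 1 null allele of Puma beside the loss of Mysm1, so the effects of these alleles cannot be told apart in this comparison. The submitters state that such mice phenocopy Mysm1-/- animals. The series title asks about Bbc3, which encodes Puma, as a gene held in check by MYSM1 in multipotent progenitors.

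MYSM1 removes ubiquitin from histone H2A, a mark laid down by Polycomb complexes on repressed genes, and mice without it are known for a loss of blood stem cells and of lymphocytes. The transcription factor p53 is activated by stress and turns on genes that halt the cell cycle, repair DNA or kill the cell. Puma, made from Bbc3, and Noxa, made from Pmaip1, are BH3-only proteins that neutralise the survival proteins of the BCL2 family, after which Bax can open the mitochondrial membrane. Cells of the CD150-negative gate are mostly multipotent progenitors, which give rise to lymphoid, myeloid and erythroid cells.

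Totals were 36985145 to 38415140 counts in the A libraries and 28066870 to 54339749 in wild-type libraries. Slamf1, which encodes CD150, was at 0.216 to 0.737 CPM of the library total (counts scaled to a common total) in A libraries and 0.463 to 1.04 in wild type, against 14.1 to 32.0 in the CD150-positive libraries of both genotypes. Kit was at 444 to 581 CPM in A libraries and 498 to 515 in wild type, so both markers fit the gate. Ly6a, which encodes Sca1, was at 16 to 22.7 CPM in A libraries and 7.34 to 10.4 in wild type (log2 fold change 1.05 ± 0.27, adjusted p = 0.085). The alpha-globin gene Hba-a1 had no read in any of the 6 libraries, while the beta-globin symbol Beta-s was at 9.24 to 22.1 CPM in A libraries and 1.3 to 3.1 in wild type. Library A2 differed from the other 5 in carrying Xist at 428 CPM and Ddx3y at 0.079 CPM, while the others had Xist at 7.57 CPM or less and Ddx3y at 90.6 CPM or more. Xist is made in female cells and Ddx3y lies on the Y chromosome, so these levels go against the label of pooled and matched sexes: A2 read as female and the other 5 as male. A3 stood apart in its low background, taken as reads on the chemosensory receptor genes (olfactory, vomeronasal and trace amine), which have no known role in marrow: these came to 1000.1 CPM in A3, 2928 and 3008 CPM in A1 and A2, and 1946 to 4197 CPM in wild type. Whether each library stands for its own animal is not said in the labels, so p-values describe how far these libraries spread. Beyond the sex markers that separate A2 from A1 and A3, that spread could be technical variation only.

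Mysm1 lies on chromosome 4, minus strand, bases 94608731 to 94645791 in build mm9, and its transcript did not separate the groups. It was at 125, 102 and 78.7 CPM in A1, A2 and A3, and 109.9, 103 and 100.2 CPM in wild type D2, D3 and D4, after scaling by the trimmed mean of M values (TMM), the scale of every CPM from here on unless stated. Its log2 fold change was -0.03 ± 0.15 (SE, n = 3 each; adjusted p = 0.972). The labels do not say which exons are lost, and reads on the remaining exons would still be counted, so this level does not check the genotype. Directions below therefore rest on the labels Mysm1-/-Puma+/- and wild type.

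Of 21168 genes tested, 184 (0.869%) passed edgeR's quasi-likelihood test, with p-values adjusted by Benjamini and Hochberg over all genes and a call at an adjusted p under 0.05. This test is behind every call and adjusted p here. At an unadjusted p under 0.05 there were 2020 genes (9.54%). In libraries labelled Mysm1-/-Puma+/-, 135 genes rose (0.638%) and 49 fell (0.231%). These shares over all genes tested, and that of 9.54% at an unadjusted p under 0.05, are the background for the list counts below. The risen genes had a median log2 fold change of 1.17 and the fallen genes one of -1.18, against -0.0521 over all genes tested. In all 184 the values of the 2 groups did not overlap, which was also so for 3308 of all genes (15.6%). Leaving out A3 gave 156 rises and 172 falls, while leaving out A1 gave 99 and 19, leaving out D2 82 and 27, and leaving out D4 75 and 23. Without each of the 6 libraries in turn, 69 of the rises and 15 of the falls were called every time.

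Among p53 targets that act in cell death, 6 of 15 tested rose, none fell and the list's median log2 fold change was 0.71. Over all genes tested 0.638% rose. The p53 lists, like the others, were written with earlier results of these data known. Their counts are descriptions and were not tested against that share. Bbc3 itself, on chromosome 7, plus strand, bases 16894965 to 16903554 in build mm9, had 21.3, 27.8 and 46.5 CPM in A1, A2 and A3 and 4.29, 8.10 and 7.14 CPM in wild type. The lowest A library lay above the highest wild-type library, and A3 was the highest of all (log2 fold change 2.28 ± 0.28, adjusted p = 1.8e-04). Pmaip1, which encodes Noxa, was at 16.1, 16.8 and 25.3 CPM in A libraries and 3.27, 1.26 and 2.29 CPM in wild type (3.11 ± 0.35, adjusted p = 6.9e-05). Bax, the pore-forming effector of the mitochondrial pathway, was at 55.4, 63.3 and 50.5 CPM in A libraries and 14.6, 16.3 and 15.2 CPM in wild type (1.87 ± 0.16, adjusted p = 2.6e-06). Thus both the BH3-only genes and the effector downstream of them were higher in each A library than in any wild-type library.

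The largest rise of all called genes was that of Eda2r, a TNF-family receptor for ectodysplasin A2. It had 33.8, 36.4 and 35.4 CPM in A libraries, with little spread between them, and 0.218, 1.02 and 1.46 CPM in wild type (5.22 ± 0.38, adjusted p = 2.5e-07). Trp53inp1, a p53 cofactor, was at 278, 269 and 428 CPM in A libraries and 61.5, 104 and 85.6 CPM in wild type (1.95 ± 0.23, adjusted p = 1.5e-04). Aen, an exonuclease that acts in apoptosis, was at 130.02, 132 and 117 CPM in A libraries and 58.7, 77.4 and 62.5 CPM in wild type (0.93 ± 0.14, adjusted p = 0.00164). The other BCL2 family genes, 14 in number, held no call by edgeR, 2 at an unadjusted p under 0.05 and 2 by DESeq2. Of these Mcl1, a survival factor for stem cells, was at 280.2 to 335 CPM in A libraries and 195 to 229.6 CPM in wild type (0.55 ± 0.13, adjusted p = 0.0604). Bcl2l11, which encodes the BH3-only protein Bim, stood at 26 to 35.6 and 16 to 20.6 CPM in A and wild-type libraries (0.73 ± 0.17, adjusted p = 0.062).

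Targets of p53 that hold the cell cycle showed 5 calls among 10 tested, all rises, and a median of 0.89 (3 to 5 calls when 1 library was left out). Cdkn1a, on chromosome 17, plus strand, bases 29227924 to 29237667, encodes p21, the inhibitor of cyclin-dependent kinases. It was at 29.5, 32.3 and 37.7 CPM in A libraries and 2.33, 2.44 and 2.35 CPM in wild type. Wild-type values were nearly equal and far below the A libraries (3.80 ± 0.24, adjusted p = 4.1e-08). Ccng1, cyclin G1, was the most abundant of the 5 with 306, 275 and 326 CPM in A libraries and 70.4, 78.9 and 71.4 CPM in wild type (2.04 ± 0.14, adjusted p = 6.8e-08). Psrc1, a spindle protein, was at 87.3, 81.5 and 98.1 CPM in A libraries and 19, 19.3 and 17.1 CPM in wild type (2.27 ± 0.13, adjusted p = 2.3e-08). The mitotic p53 regulator Gtse1 changed by 1.03 ± 0.20 (adjusted p = 0.0145) and the polo-like kinase Plk2 by 2.09 ± 0.38 (adjusted p = 0.0083). The call of Gtse1 ended without A1, A2, D3 or D4 (0.0646 to 0.0993) and that of Plk2 without D2 or D3 (0.0618 to 0.0654), the values in brackets being the adjusted p then.

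Of 10 genes in the p53 feedback list, Mdm2 was the only one called, and the list's median was 0.0052. Mdm2 marks p53 for degradation and is itself a p53 target, and it was at 153, 136 and 156 CPM in A libraries and 83.9, 87.7 and 86.4 CPM in wild type (0.79 ± 0.14, adjusted p = 0.00569). Trp53, the p53 gene, was at 42.9 to 66 CPM in A libraries and 60.6 to 74.9 CPM in wild type, with overlapping values (-0.30 ± 0.15, adjusted p = 0.584). In repair and metabolism 4 of 17 p53 targets rose, with a median of 0.0849, and 1 to 3 were called when a library was left out. Sesn2, a restraint on mTORC1 signalling, had 16.6, 16.9 and 16 CPM in A libraries and 3.02, 3.96 and 3.48 CPM in wild type (2.24 ± 0.29, adjusted p = 3.6e-04). Ddit4, another restraint on mTORC1, changed by 1.20 ± 0.25, the excision repair nuclease gene Ercc5 by 0.82 ± 0.17 and the lesion-bypass polymerase gene Polk by 0.78 ± 0.18. These calls (adjusted p = 0.0228, 0.0221 and 0.0484) ended for Ddit4 without A1, A2, D2, D3 or D4 (0.0518 to 0.151), for Ercc5 without A3, D3 or D4 (0.0592 to 0.179) and for Polk without A1, A3, D2, D3 or D4 (0.0964 to 0.225).

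A further list of p53 targets with other roles had 7 rises among 18 genes and a median of 1.14. Epha2, an ephrin receptor, was at 39.1, 38.6 and 45 CPM in A libraries and 2.54, 3.49 and 2.67 CPM in wild type (3.81 ± 0.25, adjusted p = 5.1e-08). Phlda3, which competes with Akt for membrane lipids and so restrains it, was at 27.9, 30.2 and 33.7 CPM in A libraries and 1.89, 2.66 and 3.38 CPM in wild type (3.52 ± 0.23, adjusted p = 5.1e-08). Pvt1, a noncoding RNA gene beside Myc, was at 27.2, 17.2 and 21.7 CPM in A libraries and 2.04, 0.808 and 2.77 CPM in wild type (3.57 ± 0.37, adjusted p = 3.3e-05). In each of these 3 genes every A library was several times above every wild-type library. Zfp365, known for guarding fragile sites during replication, changed by 2.66 ± 0.41 (adjusted p = 0.00222), and the thiamine transporter gene Slc19a2 by 1.82 ± 0.21 (adjusted p = 1.1e-04). Dcxr, a reductase of sugars, changed by 1.56 ± 0.22 (adjusted p = 6.7e-04), and Rps27l, a ribosomal protein paralogue, by 1.23 ± 0.19 (adjusted p = 0.00191).

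**Figure D1:**
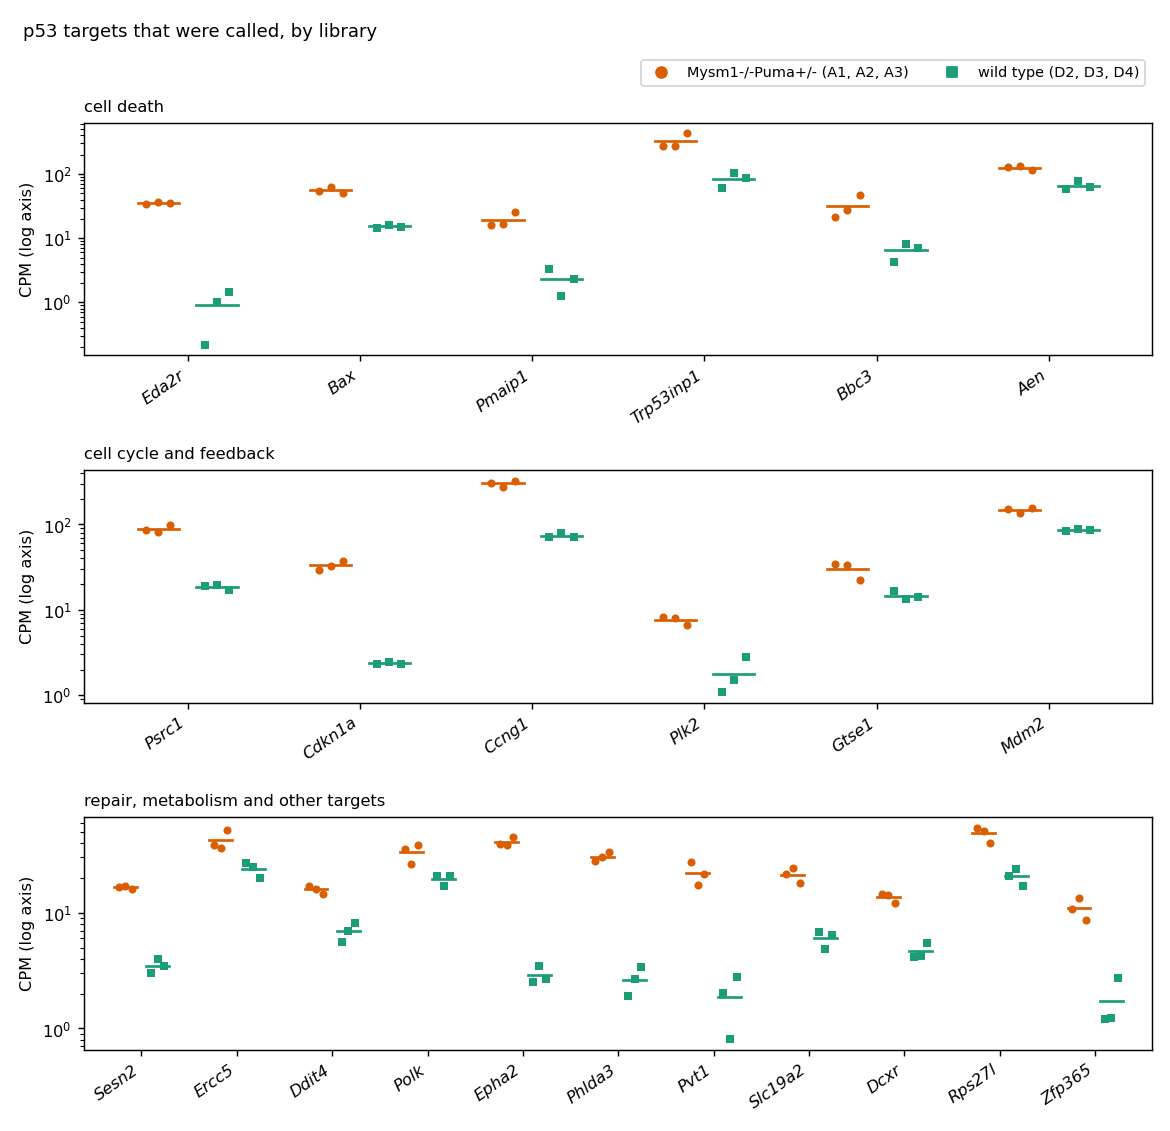
CPM of called p53 targets in each library on a log axis, with libraries labelled Mysm1-/-Puma+/- as circles on the left of each gene and wild type as squares on the right, and short bars for group means. In every gene shown all circles lie above all squares; Cdkn1a has 29.5 to 37.7 CPM in A libraries and 2.33 to 2.44 CPM in wild type.

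The promoters of the risen genes were read for the p53 response element, since targets of p53 moved together. The motif searched is the palindromic element of 2 decamers of 10 bases, each with C at position 4 and G at position 7 fixed, a spacer of at most 1 base and at most 2 mismatches in all, read on both strands. The window was 250 bases before to 50 after the start of the gene in RefSeq GRCm38.p6. It was matched in 6 of 96 risen genes that had such a sequence (6.25%), in 0 of 34 fallen genes and in 126 of 15270 of all tested genes (0.825%). All 6 matches are in promoters of genes of the p53 lists above, and no risen gene outside those lists was matched. The share among risen genes thus comes from listed p53 targets only, and its difference from that of all genes was not tested. Matches in 5 of the 6 are printed, each with 15 bases on either side and with the matched element in capitals. The match not printed is that of Gtse1, at chr15:85859930-85859979 on the plus strand, which begins 1 base before the gene's start. Cdkn1a lies at chr17:29090913-29090962 on the plus strand and Rps27l at chr9:66946281-66946330 on the plus strand. On the minus strand are Zfp365 at chr10:67912691-67912740, Ccng1 at chr11:40755447-40755496 and Bax at chr7:45467064-45467114. The sequences run 5′ to 3′ along the gene.
Cdkn1a: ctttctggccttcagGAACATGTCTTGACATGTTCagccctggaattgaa
Zfp365: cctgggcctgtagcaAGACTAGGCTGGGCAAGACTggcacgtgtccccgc
Ccng1: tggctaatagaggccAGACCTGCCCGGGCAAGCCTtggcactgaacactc
Bax: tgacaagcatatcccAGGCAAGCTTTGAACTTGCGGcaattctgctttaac
Rps27l: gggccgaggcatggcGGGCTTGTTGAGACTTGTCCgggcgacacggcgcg
The element of Cdkn1a begins 51 bases before the gene's start, that of Zfp365 63, that of Rps27l 117, that of Ccng1 195 and that of Bax 201 bases before it. In Bax the decamers are parted by a spacer of 1 base. These matches describe the letters only, and genes without one may carry an element outside this window.

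Several of the largest rises were outside the p53 lists. Ak1, the cytosolic adenylate kinase that balances adenine nucleotides, had the smallest adjusted p of the genes named here. It was at 59.1, 60.3 and 55.3 CPM in A libraries and 4.25, 3.65 and 4.46 CPM in wild type (3.82 ± 0.17, adjusted p = 7.5e-10). Ak1 overlaps Eng on the same strand, and Eng was at 35.8 to 58.1 and 43.6 to 52.8 CPM in A and wild-type libraries (-0.08 ± 0.16, adjusted p = 0.935). Tnfsf4, the ligand OX40L of the tumour necrosis factor family, was at 30.6, 30.9 and 28 CPM in A libraries and 0.836, 1.18 and 1.97 CPM in wild type (4.47 ± 0.58, adjusted p = 3.5e-04). Of 35 genes of that family 3 rose and none fell, with a median of 0.0519, and the others called were Eda2r and Tnfsf8, the ligand CD30L (1.48 ± 0.29, adjusted p = 0.0165). Without D2, D3 or D4 (0.0538 to 0.104) the call of Tnfsf8 ended.

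Genes that act outside the cell were among the strongest rises. Of 33 matrix and protease genes 3 rose and 1 fell, with a median of -0.29. The sign of that median depended on D4: it was 0.0112 without D4 and -0.103 to -0.429 without any other single library. Serpine2, an inhibitor of thrombin and other serine proteases, was at 79.1, 81.8 and 71.8 CPM in A libraries and 6.40, 5.72 and 6.36 CPM in wild type (3.66 ± 0.21, adjusted p = 2.3e-08). Sulf2, which trims sulfates from heparan sulfate, was at 46.3, 51.9 and 59.5 CPM in A libraries and 6.07, 4.40 and 4.49 CPM in wild type (3.41 ± 0.26, adjusted p = 4.6e-07). Mmp2, a gelatinase, was at 54.4, 45 and 73.7 CPM in A libraries and 13.6, 9.15 and 16.4 CPM in wild type (2.15 ± 0.21, adjusted p = 1.2e-05). The values of the groups are far apart in these 3 genes. Serpinf1, which encodes the anti-angiogenic factor PEDF, fell, with 9.93, 12.5 and 14.6 CPM in A libraries and 34.2, 37.3 and 28.5 CPM in wild type (-1.43 ± 0.18, adjusted p = 1.8e-04). Slpi, an inhibitor of neutrophil elastase, changed by 3.28 ± 0.57 (adjusted p = 0.00541), and A1 with 24.5 CPM stood above A2 and A3 with 8.67 and 6.67 CPM. Wild-type libraries held 1.89, 1.64 and 0.605 CPM of it.

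The genes in the next 3 paragraphs are partly chosen after their values were seen. Gas6 and Pros1, the vitamin K-dependent ligands of the TAM receptors by which dying cells are cleared, rose together. Gas6 was at 27.7, 22.8 and 21.6 CPM in A libraries and 7.67, 9.30 and 7.99 CPM in wild type (1.53 ± 0.17, adjusted p = 5.9e-05). Pros1 was at 12.7, 18.6 and 22.8 CPM in A libraries and 3.27, 6.21 and 4.72 CPM in wild type (1.92 ± 0.26, adjusted p = 6.7e-04). Anxa5, which binds the phosphatidylserine exposed on dying cells, changed by 0.84 ± 0.14 (adjusted p = 0.00383), and Lgals1, galectin 1, by 1.52 ± 0.23 (adjusted p = 0.00191). Of 16 caspases and inhibitors of apoptosis 2 rose, Casp1, the protease of inflammasomes (0.95 ± 0.16, adjusted p = 0.00463), and Casp12 (1.15 ± 0.21, adjusted p = 0.0101), while the list's median was 0.11. The call of Casp12 ended without D2 or D4 (0.0732 to 0.0906). Pycard, the adaptor of inflammasomes, changed by 0.67 ± 0.14 (adjusted p = 0.0289), and lost its call without A1, A2, D2 or D4 (0.097 to 0.218).

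Single genes of the cell cycle and of signalling were called, some of them chosen after their values were seen. Ccnd1, cyclin D1, which drives entry into the cell cycle, was at 102, 92.2 and 104 CPM in A libraries and 39.4, 43 and 43.4 CPM in wild type (1.25 ± 0.14, adjusted p = 8.1e-05). Of 22 genes of the G1 phase only Ccnd1 and Cdkn1a, an activator and an inhibitor, were called, 9 were higher and 13 lower, and the median was -0.10. Etv5, an ETS factor downstream of ERK signalling, was at 53.9, 50.6 and 49.8 CPM in A libraries and 13.9, 20.2 and 13.7 CPM in wild type (1.69 ± 0.18, adjusted p = 4.7e-05). Dusp6, the ERK phosphatase, changed by 0.87 ± 0.18 (adjusted p = 0.0221), and its call ended without A1, A3, D2 or D4 (0.0585 to 0.158). Gem, a small GTPase, was at 115, 91.1 and 101 CPM in A libraries and 14.9, 20.8 and 26.3 CPM in wild type (2.31 ± 0.19, adjusted p = 1.7e-06). Ier5 was the sole call among 23 immediate early genes (1.46 ± 0.16, adjusted p = 6.7e-05), whose median was 0.11. Selp, the adhesion molecule P-selectin, had 14.9, 27.4 and 28.1 CPM in A libraries and 6.62, 3.15 and 4.29 CPM in wild type (2.33 ± 0.30, adjusted p = 3.0e-04). Angpt1, a ligand of the Tie2 receptor and an abundant transcript here, was at 960.5, 761 and 868 CPM in A libraries and 449, 588 and 432 CPM in wild type (0.82 ± 0.15, adjusted p = 0.0109). Its call ended without A1, D2 or D4 (0.0721 to 0.0983).

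Metabolic, repair and transport genes made up a further group. Mgmt, which removes alkyl groups from guanine, was at 29, 24.8 and 22 CPM in A libraries and 4.43, 5.85 and 4.99 CPM in wild type (2.30 ± 0.24, adjusted p = 3.3e-05). Cox6b2, an isoform of a cytochrome c oxidase subunit known from testis, was at 36.4, 50.1 and 51.1 CPM in A libraries and 14.4, 11.1 and 11.1 CPM in wild type (1.91 ± 0.21, adjusted p = 5.6e-05). Hk3, the myeloid hexokinase, changed by 1.35 ± 0.21 (adjusted p = 0.00268) as the sole call among 23 glycolysis genes, with a median of 0.24. Ass1, which makes argininosuccinate, changed by 1.11 ± 0.19 (adjusted p = 0.00465), though its reads may be shared with Gm5424, a near-identical copy that changed by 1.08 ± 0.18 (adjusted p = 0.00379). Nfe2l2, the master regulator of antioxidant genes, was the sole call among 28 genes of that list (0.82 ± 0.15, adjusted p = 0.0127; list median 0.20), and its call ended without D2, D3 or D4 (0.0512 to 0.0971). Exoc4, a subunit of the exocyst, was at 292, 248 and 245 CPM in A libraries and 93.2, 110.3 and 84.4 CPM in wild type (1.45 ± 0.15, adjusted p = 2.6e-05).

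Some risen genes were neighbours on the chromosome, given here in build mm9. Between 105452754 and 105507582 of chromosome 12, on the plus strand, Serpina3f, Serpina3g, Serpina3h and Serpina3i, inhibitors of serine proteases, stand in a row and all rose. Serpina3g was at 227, 283 and 376 CPM in A libraries and 102, 112 and 88.6 CPM in wild type (1.55 ± 0.18, adjusted p = 1.1e-04). The other 3 changed by 1.35 ± 0.25, 1.58 ± 0.21 and 1.39 ± 0.20 in the order f, h and i, and reads could be shared between these similar genes. Serpina3n, at 105644939 to 105652539 in the same family, changed by 1.44 ± 0.31 (adjusted p = 0.0352). Serpina1a, a more distant member of the cluster, was at 20.5 to 39 CPM in A libraries and 27.3 to 52.2 CPM in wild type (-0.37 ± 0.27, adjusted p = 0.746). The call of Serpina3f (adjusted p = 0.0125) ended without D2 or D4 (0.0708 to 0.104) and that of Serpina3n without any of the 6 libraries (0.0732 to 0.175).

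On chromosome 5, between 8660077 and 8866314, the drug efflux pump genes Abcb1a and Abcb1b rose together. Abcb1b was at 147, 136 and 145 CPM in A libraries and 71.5, 85 and 78.2 CPM in wild type (0.86 ± 0.12, adjusted p = 8.0e-04), and Abcb1a changed by 1.00 ± 0.18 (adjusted p = 0.0107), called no longer without A1, D2 or D4 (0.0667 to 0.0824). Casp1 and Casp12 are neighbours between 5298517 and 5373032 of chromosome 9, and Selp and Slc19a2 between 166045395 and 166195516 of chromosome 1. Gm16197, a predicted gene that ends 12018 bases before Cdkn1a on chromosome 17, had 12.6, 13.4 and 23.4 CPM in A libraries and 4.43, 4.51 and 5.83 CPM in wild type (1.74 ± 0.25, adjusted p = 9.4e-04). Within 10 Mb of Mysm1 none of 107 tested genes was called, and within 10 Mb of Bbc3 none of 303, against 0.869% of all genes tested. At that share few calls are expected among so few genes, so these counts do not set the regions apart. At an unadjusted p under 0.05 there were 6 and 22, against 9.54% of all genes tested. By chromosome, the share of tested genes called was between 0 on Y, with 9 genes tested, and 1.52% on chromosome 12.

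Genes of antibody secretion and of class II antigen presentation were among the rises. Igj, the joining chain of secreted antibodies, was at 1234, 1236 and 346 CPM in A libraries and 59.4, 135 and 119 CPM in wild type (3.16 ± 0.59, adjusted p = 0.0119). A1 and A2 were about equal and A3 lower, yet above every wild-type library. Its call ended without D2 or D4 (0.0686 to 0.0848). Cd74, the invariant chain of class II antigen presentation, was at 52, 53.2 and 139 CPM in A libraries and 20.9, 36.5 and 25.9 CPM in wild type (1.55 ± 0.34, adjusted p = 0.0337), and its call ended without A3, D2, D3 or D4 (0.0501 to 0.2). H2-Eb1, a class II chain, was at 19.4, 17.2 and 80.1 CPM in A libraries, A3 being far above the others, and 9.67, 12 and 10.7 CPM in wild type (1.85 ± 0.42, adjusted p = 0.0415), and its call ended without A3, D2, D3 or D4 (0.0811 to 0.199). Of 12 B-cell genes tested 2 were called, and the list's summed level was 502.4 to 1323 CPM of the library total in A libraries and 139.4 to 224.2 CPM in wild type. Igj alone gave 328.1 to 1189 CPM of that sum in A libraries and 58.2 to 126.4 CPM in wild type. Pax5, a defining transcription factor of B cells, was at 0 to 0.649 CPM in A libraries and 0.129 to 1.53 CPM in wild type. The part of B-lineage cells in these rises was not tested. In bulk RNA a change in the share of cells of a type and a change in RNA per cell cannot be told apart.

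Markers of other cell types showed few calls. Of 17 T and NK cell genes Nkg7, a granule protein, rose (1.13 ± 0.22, adjusted p = 0.0151), called no longer without A1, D2, D3 or D4 (0.0538 to 0.112), although the list's median was -0.63. The summed levels of that list were 76.8 to 92.6 CPM in A libraries and 92.6 to 120.1 CPM in wild type. By edgeR none of 28 myeloid genes and 12 mast and basophil genes was called, with 4 and 1 at an unadjusted p under 0.05, none by DESeq2, and 1 and 0 by limma voom. Of the 28 myeloid genes 14 were higher and 14 lower, with a median of 0.00697. The one with the smallest p was Elane, neutrophil elastase, at 16.4, 29.3 and 33.3 CPM in A libraries and 113, 44.9 and 48.6 CPM in wild type (-1.38 ± 0.50, adjusted p = 0.313). Summed myeloid levels were 1293 to 2261 CPM in A libraries and 1516 to 2782 CPM in wild type, an overlap.

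Of the fallen genes named by the rule, the largest change was that of Hnf4a, a nuclear receptor best known from the liver, on chromosome 2, plus strand, bases 163332544 to 163398646. It was at 7.63, 7.14 and 8.65 CPM in A libraries and 42.2, 54.3 and 50.7 CPM in wild type, about equal within each group (-2.65 ± 0.17, adjusted p = 5.1e-08). It was the sole call among 39 nuclear receptor genes, whose median was -0.0904, and it overlaps 0610008F07Rik on the opposite strand. Next came Rftn2, a raft protein, with 3.56, 1.13 and 4.64 CPM in A libraries and 12, 16.2 and 17.2 CPM in wild type (-2.29 ± 0.38, adjusted p = 0.00384). Plag1, a zinc finger factor that activates Igf2, had 1.71, 2.80 and 4.34 CPM in A libraries and 9.85, 15.7 and 13.2 CPM in wild type (-2.13 ± 0.35, adjusted p = 0.0032). Obsl1, a cytoskeletal adaptor, changed by -2.16 ± 0.33 (adjusted p = 0.00159), Plxdc2, a membrane protein, by -1.79 ± 0.31 (adjusted p = 0.00569), and Ankrd6, an inhibitor of canonical Wnt signalling, by -1.44 ± 0.25 (adjusted p = 0.00556). Others among the 15 largest falls were the fatty acid transporter gene Slc27a2 (-1.99 ± 0.41), Pdzd4 (-1.63 ± 0.29), Btbd11 (-1.53 ± 0.32) and the Src-family kinase gene Yes1 (-1.51 ± 0.28), with adjusted p of 0.0244, 0.00753, 0.0254 and 0.011 in that order. Their calls ended without A1, A2, D2, D3 or D4 (0.0538 to 0.142) for Slc27a2, without A1, A2 or D4 (0.0522 to 0.0531) for Pdzd4, without A1, A3, D2 or D3 (0.0552 to 0.138) for Btbd11 and without A2, D2 or D3 (0.0501 to 0.0611) for Yes1.

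Some receptor and growth factor genes were called lower. Mmrn1, multimerin 1 of megakaryocytes, was at 23.6, 19.5 and 15.8 CPM in A libraries and 48.2, 56.2 and 47.1 CPM in wild type (-1.36 ± 0.22, adjusted p = 0.00288). It went against most of its list: of 25 megakaryocyte genes 18 were higher and 7 lower, with a median of 0.57, though Selp alone was called higher and 2, Mmrn1 among them, lower. At an unadjusted p under 0.05 there were 10 higher and 2 lower. Pdgfrb, a receptor of platelet-derived growth factor used by mesenchymal cells, was at 19.7, 17.4 and 27.8 CPM in A libraries and 49.2, 46.3 and 51.1 CPM in wild type (-1.18 ± 0.16, adjusted p = 6.7e-04). It was the sole call among 15 stroma and endothelium genes, of which 11 were lower, 8 of them at an unadjusted p under 0.05. Values of the groups did not overlap in 3 of the 15. The list's median of -1.03 depended on D4: it was -0.323 without D4 and -0.965 to -1.23 without any other single library. The summed level of the list was 222.4 to 251.2 CPM in A libraries and 226.5 to 403.5 CPM in wild type, D4 being the highest. The part of such cells in the fall of Pdgfrb was not tested. Epha7 fell, with 11.8, 10.4 and 9.53 CPM in A libraries and 24.1, 27.1 and 22.6 CPM in wild type (-1.22 ± 0.16, adjusted p = 3.9e-04), while its family member Epha2 rose, the 2 calls among 19 Eph and ephrin genes. Pde3b, a phosphodiesterase, changed by -1.08 ± 0.17 (adjusted p = 0.00247). The vascular growth factors Vegfa (-0.93 ± 0.21, adjusted p = 0.0395) and Vegfb (-0.97 ± 0.20, adjusted p = 0.0244), chosen after their values were seen, lost their calls without A2, A3, D2 or D3 (0.0713 to 0.216) and without A1, D2 or D4 (0.0993 to 0.146).

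**Figure D2:**
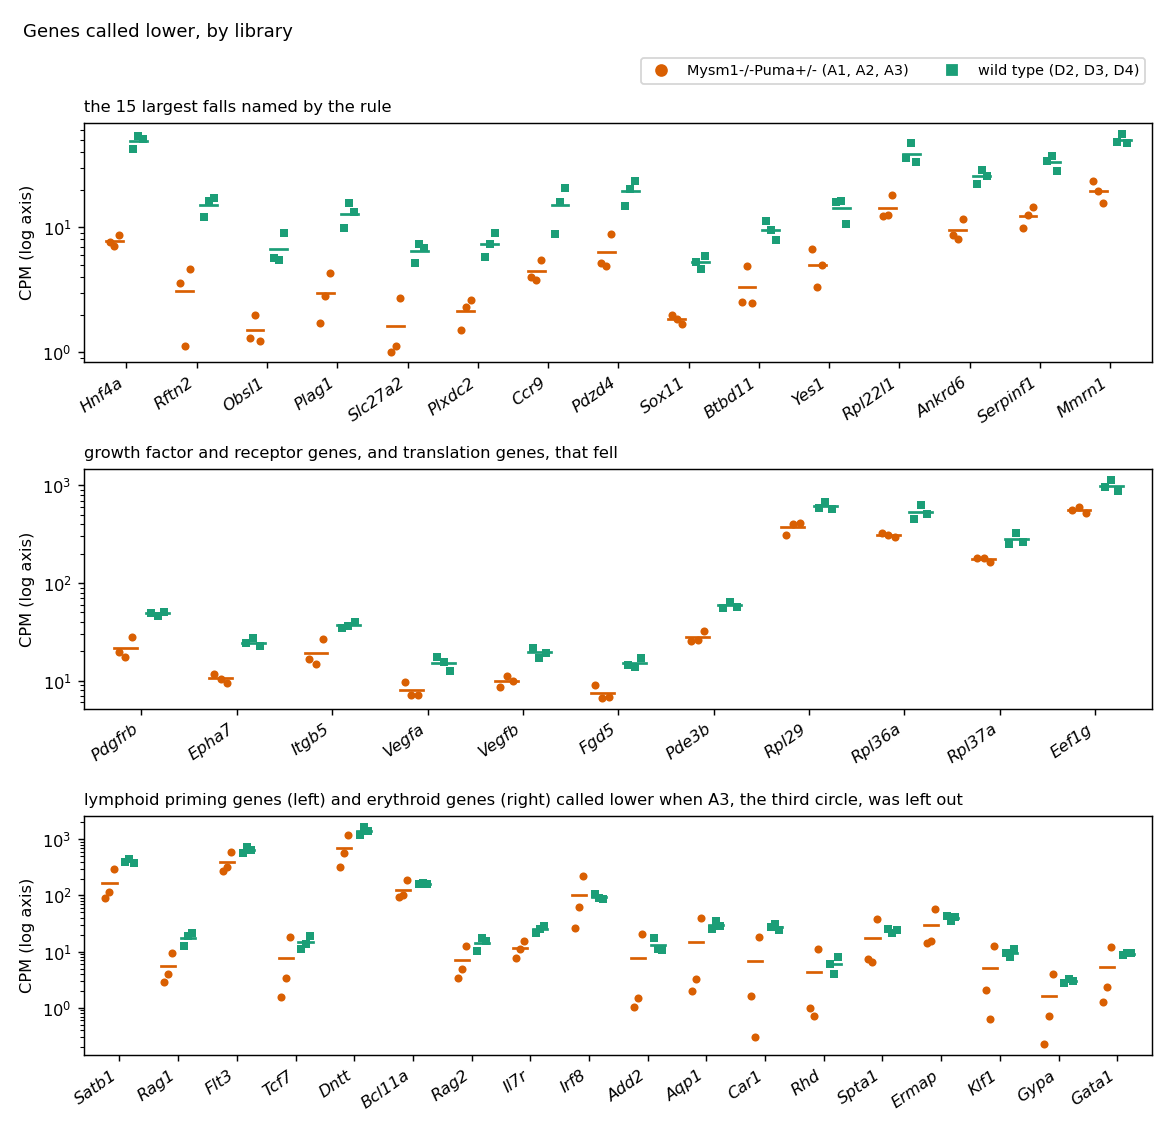
CPM of fallen genes in each library on a log axis, libraries labelled Mysm1-/-Puma+/- as circles on the left and wild type as squares on the right of each gene, bars marking group means. The top and middle panels show called falls such as Hnf4a, at 7.14 to 8.65 CPM in A libraries and 42.2 to 54.3 CPM in wild type; the bottom panel shows lymphoid priming and erythroid genes called lower when A3 was left out, in which the third circle often reaches the squares.

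Genes of lymphoid priming were mostly lower in A1 and A2, and how many passed the test depended on A3. By log2 fold change over all 6 libraries 19 were lower and 4 higher. At an unadjusted p under 0.05 there were 8 lower and 2 higher. Of 23 tested, Ccr9, a chemokine receptor of early thymic progenitors, was the only call (-1.77 ± 0.37, adjusted p = 0.0244), and the list's median was -0.71. Ccr9 was at 4.01, 3.79 and 5.52 CPM in A libraries and 8.83, 15.9 and 20.5 CPM in wild type, and its call ended without A1, A2, D3 or D4 (0.0766 to 0.166). Without A3, 10 of the 23 fell and the median was -1.13. DESeq2 called 5, limma voom 8 and a fit with the receptor background of each library as a covariate 9. The other comparisons held no call lower in this list. For Mysm1-/-Puma-/- over Puma-/- in CD150-negative cells none was called and the median was -0.0721. For Mysm1-/-Puma+/- over wild type in CD150-positive cells 1 rose and the median was -0.283. Satb1, a chromatin organiser needed for lymphoid fate, was at 91.5, 114 and 299.8 CPM in A1, A2 and A3 and 389.7, 446 and 382 CPM in wild type, with a log2 fold change of -1.27 ± 0.31 (adjusted p = 0.0745) with A3 and -1.98 (adjusted p = 2.4e-05) without it. Rag1, of the recombinase that assembles antigen receptor genes, was at 2.92, 3.95 and 9.53 CPM in A libraries and 12.5, 18.9 and 21.9 CPM in wild type (-1.70 ± 0.40, adjusted p = 0.0544, and 0.00157 without A3). In Satb1, Rag1 and Il7r, the receptor of interleukin 7 (7.83, 11 and 15.6 CPM in A libraries and 21.2, 25.2 and 28.2 CPM in wild type), each A library lay below each wild-type library. Flt3, the receptor that marks lymphoid-primed progenitors, was at 274, 318 and 602 CPM in A libraries and 569.7, 727 and 651 CPM in wild type, so A3 lay within the wild-type range. In Irf8 and Bcl11a, also among the 10 that fell without A3, A3 lay above every wild-type library. Irf8 was at 26.8, 61.5 and 223 CPM in A libraries and 85.7 to 108 CPM in wild type. Bcl11a was at 92.8, 101 and 189 CPM in A libraries and 157 to 165 CPM in wild type.

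Erythroid transcripts followed the same division between libraries. Of 18 erythroid genes edgeR called none, with a median of -0.47 and 1 at an unadjusted p under 0.05. Without A3, 9 of the 18 fell with a median of -1.64. DESeq2 called none and limma voom, which weights libraries by quality, 9. Gata1, the master factor of erythroid and megakaryocyte fate, was at 1.26, 2.36 and 12.1 CPM in A1, A2 and A3 and 8.69, 9.58 and 9.46 CPM in wild type. Klf1, which drives globin and membrane genes, was at 2.10, 0.631 and 12.4 CPM in A libraries and 9.38, 8.14 and 11.3 CPM in wild type. Car1, a carbonic anhydrase of early erythroid cells, was at 1.63, 0.302 and 18.2 CPM in A libraries and 26.9, 30.5 and 24.7 CPM in wild type. A1 and A2 were far below wild type in these 3 genes, and A3 was near or above it in Gata1 and Klf1. The summed level of the erythroid list was 409.5 and 472.7 CPM of the library total in A2 and A1, 914.2 CPM in A3 and 651.2 to 687.8 CPM in wild type. With the receptor background of each library as a covariate 3 of the 18 fell. Beta-s, outside that list and given by RefSeq as a synonym of the adult beta-globin gene Hbb-bs, rose, with 13.9, 9.63 and 23.3 CPM in A libraries and 3.16, 2.15 and 1.26 CPM in wild type (2.84 ± 0.39, adjusted p = 6.7e-04). All 3 A libraries were above wild type, so A1 and A2 stood higher in this globin while lower in Gata1, Klf1 and Car1. Whether its reads are shared with Hbb-b1, a close relative near 0 in these libraries, is not given.

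Regulators of stem cells were called in both directions. Of 43 transcription factors 1 rose and 1 fell, with a median of -0.0438, and of 31 surface genes 1 rose and 2 fell, with a median of -0.0601, against 0.869% called over all genes tested. Mecom, which encodes EVI1 and maintains stem cells, was at 74.3, 57.6 and 73.2 CPM in A libraries and 38.7, 44.1 and 43.5 CPM in wild type (0.70 ± 0.14, adjusted p = 0.0165), called no longer without A1, D2, D3 or D4 (0.0654 to 0.123). Fgd5, a marker of stem cells, changed by -1.02 ± 0.22 (adjusted p = 0.0328), which ended without A2, A3, D2, D3 or D4 (0.0589 to 0.191). None of 39 genes that write or erase H2A ubiquitin was called by edgeR, DESeq2 or limma voom, and the median was -0.00934. At an unadjusted p under 0.05 there were 4 of the 39, against 9.54% of all genes tested. None of 21 Hox genes was called by edgeR, 1 by DESeq2 and 1 by limma voom, 2 had an unadjusted p under 0.05, and Hoxb2, the one with the smallest p, had 5.11, 4.31 and 2.44 CPM in A libraries and 0.473, 1.14 and 0.807 CPM in wild type (2.27 ± 0.56, adjusted p = 0.0699).

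Genes of the large ribosomal subunit held 4 of the 49 falls. Of 50 such genes 4 fell, against 0.231% of all genes tested, none rose and the median was -0.21. Between 1 and 4 fell when a library was left out. Rpl22l1, a paralogue of Rpl22 with a known part in T-cell development, was at 12.4, 12.5 and 18 CPM in A libraries and 36.3, 47.5 and 33.4 CPM in wild type (-1.45 ± 0.19, adjusted p = 3.8e-04). Its near-identical copy Gm15421 changed by -1.48 ± 0.24 (adjusted p = 0.00341), so their reads may be shared. Rpl36a (-0.78 ± 0.15, adjusted p = 0.0166), Rpl37a (-0.68 ± 0.14, adjusted p = 0.0183) and Rpl29 (-0.70 ± 0.16, adjusted p = 0.0403) lost their calls without A1, A2, D3 or D4 (0.0503 to 0.0725), without A1, D3 or D4 (0.0522 to 0.0766) and without A1, A2, D2, D3 or D4 (0.0889 to 0.239), and ribosomal genes have many copies that can share reads. Eef1g, a subunit of the translation elongation factor, was at 557, 607 and 524 CPM in A libraries and 967, 1130.0 and 869 CPM in wild type (-0.81 ± 0.15, adjusted p = 0.0134), and its call ended without A1, D2 or D3 (0.0512 to 0.0701). Among 31 small-subunit genes only Rps27l, the p53 target, was called.

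The RNA parts of a pair of ribonucleases, chosen after their values were seen, were called higher. Rpph1, the RNA of ribonuclease P, which trims transfer RNA precursors, was at 8248, 6303 and 7685 CPM in A libraries and 3194, 3612 and 3346 CPM in wild type (1.13 ± 0.16, adjusted p = 9.7e-04). Rmrp, the RNA of the related ribonuclease MRP, was at 340.4, 424 and 416 CPM in A libraries and 188, 265 and 262 CPM in wild type (0.72 ± 0.16, adjusted p = 0.037), and its call ended without A2, A3, D2, D3 or D4 (0.0563 to 0.239). Of 15 snoRNA host genes 12 were higher, with a median of 0.35, and edgeR and DESeq2 called none, limma voom 1, with 7 at an unadjusted p under 0.05. Of 40 genes of ribosome biogenesis edgeR called none, DESeq2 2 and limma voom 3, with 5 at an unadjusted p under 0.05 and a median of 0.0436.

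Small shifts common to many genes of a list were not called gene by gene. Of 89 genes of oxidative phosphorylation 82 were higher in A libraries than in wild type, with a median of 0.24, and Cox6b2 alone was called. At an unadjusted p under 0.05 there were 18 higher and 0 lower in that list. Of 76 mitochondrial ribosomal genes 63 were higher with a median of 0.16, edgeR and DESeq2 called none and limma voom 5, and 9 had an unadjusted p under 0.05. Of 42 mitosis genes 36 were lower with a median of -0.21, and edgeR called none, DESeq2 1 and limma voom 2, with 6 at an unadjusted p under 0.05. The smallest p among these was that of Incenp, of the chromosomal passenger complex, at 141, 159 and 137 CPM in A libraries and 213, 198 and 199 CPM in wild type (-0.48 ± 0.13, adjusted p = 0.111). Summed mitosis levels were 4449 to 6049 CPM of the library total in A libraries and 6280 to 7141 CPM in wild type, without overlap. Of 63 histone genes 50 were lower with a median of -0.17, and edgeR called none, DESeq2 1 and limma voom 4, with 8 at an unadjusted p under 0.05. Over all 21168 genes 9492 were higher and 11675 lower. The signs of these shifts were not the same in each comparison. For Mysm1-/-Puma-/- over Puma-/- in CD150-negative cells, the medians were -0.263 for oxidative phosphorylation, -0.236 for mitochondrial ribosomal, -0.774 for mitosis and -0.994 for histone genes. For Mysm1-/-Puma+/- over wild type in CD150-positive cells they were 0.177, 0.154, 0.233 and -0.0478 in that order.

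**Figure D3:**
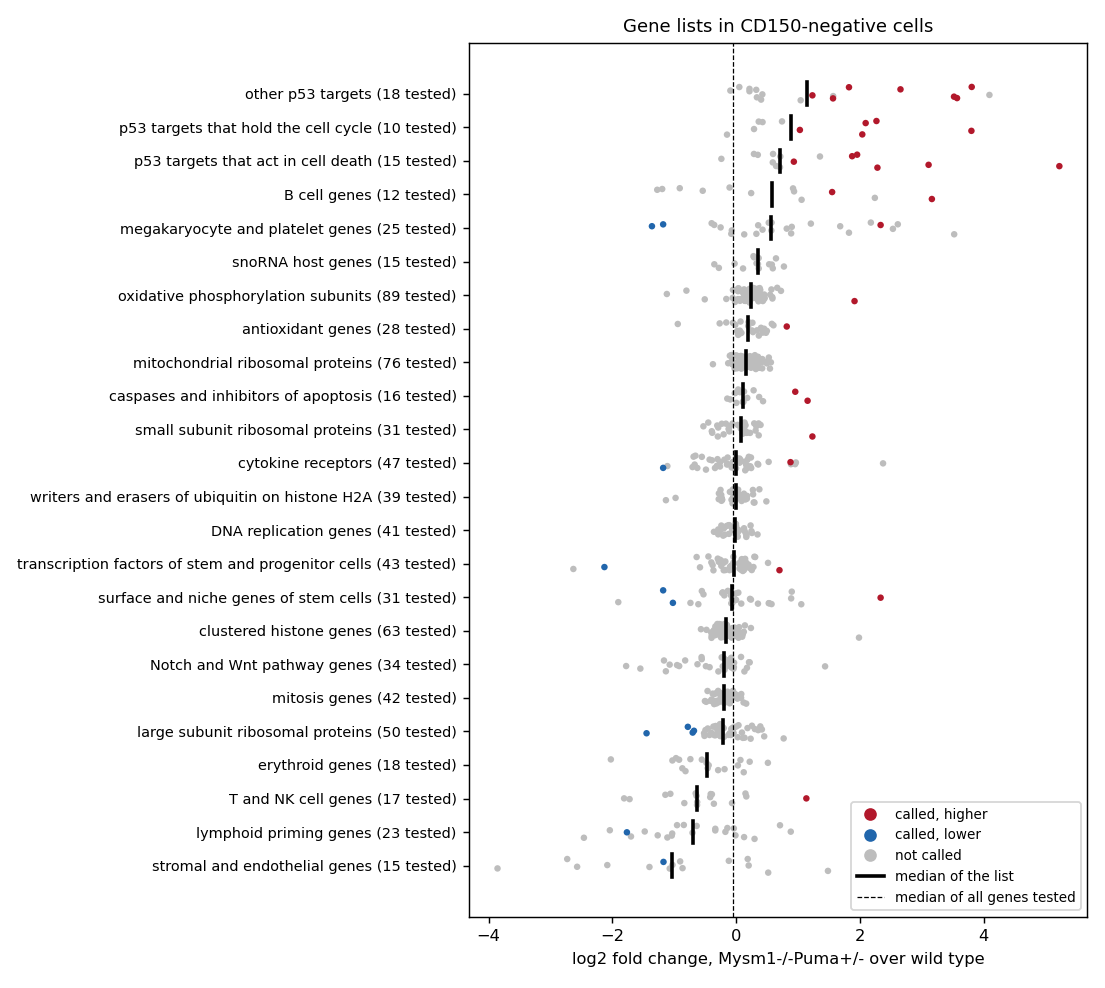
Log2 fold change of libraries labelled Mysm1-/-Puma+/- over wild type (horizontal axis) for each tested member of 24 gene lists, 1 list a row, with a bar at each list's median and a dashed line at the median of all genes tested, -0.0521. Coloured points passed the test, and they lie to the right in the p53 lists shown, of which death targets have a median of 0.71.

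Other signalling and stress lists held at most 1 call in a direction. Tgfbr3, a TGF-beta co-receptor (0.88 ± 0.19, adjusted p = 0.0383), rose among 47 cytokine receptors, and Plxna1, a semaphorin receptor (1.00 ± 0.21, adjusted p = 0.0269), rose and Plxdc2 fell among 27 semaphorin and plexin genes. Itgb5, an integrin chain (-0.93 ± 0.19, adjusted p = 0.0244), fell among 36 integrin and adhesion genes, and Grb10, an imprinted adaptor that restrains insulin signalling (-1.12 ± 0.26, adjusted p = 0.0459), among 21 imprinted genes. These 4 calls ended without A1, D2, D3 or D4 (0.085 to 0.239) for Tgfbr3, without A1, A2, D2, D3 or D4 (0.0653 to 0.188) for Plxna1, without A1, A2, D2, D3 or D4 (0.0618 to 0.142) for Itgb5 and without A1, A3, D2, D3 or D4 (0.0787 to 0.258) for Grb10. Of 29 genes of the integrated stress response Sesn2 was the sole call, and of 31 fatty acid genes Slc27a2. edgeR called no gene among 41 replication, 33 DNA damage, 37 interferon, 22 NF-kappaB, 25 autophagy, 21 cholesterol and 34 Notch and Wnt genes, whose medians lay between -0.193 and 0.193. In that order 0, 5, 9, 1, 5, 5 and 4 had an unadjusted p under 0.05, DESeq2 called 0, 0, 3, 0, 1, 1 and 0, and limma voom 0, 1, 5, 1, 0, 3 and 2. Of 1094 receptor background genes, whose median was -0.60, Olfr111 and Olfr663 were called lower and had no read in the A libraries. Their calls ended without A1, A2 or D2 (0.0604 to 0.0667) for Olfr111 and without A1, A2 or D3 (0.0638 to 0.0701) for Olfr663.

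The same genes were then followed in libraries of which none enters the main comparison. Mysm1-/-Puma-/- against Puma-/- CD150-negative libraries (3 against 3) gave 285 calls (1.35%), 87 rises (0.411%) and 198 falls (0.935%), and 2339 genes (11%) at an unadjusted p under 0.05. Of the 135 risen genes 129 (95.6%) had the same sign there and 58 were called, which is 43.0% of the 135 and 66.7% of the 87, with a median log2 fold change of 0.70 there and 1.17 here. Of the 49 fallen genes 45 (91.8%) had the same sign and 10 were called, which is 20.4% of the 49 and 5.05% of the 198, with medians of -0.53 there and -1.18 here. Over all genes 52.6% were higher and 47.4% lower in that comparison. These groups are both null for Puma, so Puma heterozygosity is no part of their difference, but both comparisons share 1 estimate of the spread.

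Among p53 targets, Cdkn1a changed by 3.59 ± 0.23 on the Puma-null background (adjusted p = 8.9e-08), Bax by 1.34 ± 0.16 (2.8e-04), Pmaip1 by 2.01 ± 0.33 (0.00359) and Eda2r by 3.94 ± 0.36 (6.8e-06). Bbc3 had 20.2, 26 and 29.7 CPM in libraries labelled Mysm1-/-Puma-/- and 6.14, 5.21 and 5.34 CPM in those labelled Puma-/- (2.18 ± 0.28, adjusted p = 4.6e-04), so a Bbc3 transcript was still counted in libraries labelled null for Puma. The death targets had 6 calls there, the same number as in the main comparison. Selp (0.61 ± 0.28, adjusted p = 0.444), Etv5 (0.32 ± 0.18, 0.56) and Pdgfrb (-0.12 ± 0.16, 0.918) were not called there. Their difference between Puma backgrounds was 1.73 ± 0.40 for Selp (adjusted p = 0.477), 1.37 ± 0.25 for Etv5 (0.222) and -1.06 ± 0.23 for Pdgfrb (0.388), and did not pass. Of all genes 3 (0.0142%) passed the test of that difference, 1 more positive (0.00472%) and 2 more negative (0.00945%) with 1 Puma allele, and 1595 (7.53%) had an unadjusted p under 0.05. Mitosis, histone and large ribosomal subunit genes had 26, 53 and 22 falls on the Puma-null background, against 0, 0 and 4 in the main comparison, and none of these genes passed the test of the difference.

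In CD150-positive cells, the fraction with stem cells, libraries labelled Mysm1-/-Puma+/- against wild type (4 against 4) gave 95 calls (0.454%), 78 rises (0.372%) and 17 falls (0.0812%), and 1824 genes (8.71%) at an unadjusted p under 0.05. Of the 135 genes that rose in CD150-negative cells 133 (98.5%) had the same sign and 46 were called (34.1% of the 135 and 59.0% of the 78), with a median of 0.78. Of 48 fallen genes tested 46 (95.8%) had the same sign and 8 were called (16.3% of the 49 and 47.1% of the 17), with a median of -0.74. Over all genes 46.7% were higher and 53.3% lower. Bbc3 changed by 2.43 ± 0.23 (adjusted p = 4.6e-06), Cdkn1a by 3.81 ± 0.37 (5.3e-06), Psrc1 by 2.27 ± 0.21 (4.6e-06) and Hnf4a by -1.87 ± 0.31 (0.00324). Ak1 changed by 1.91 ± 0.22 (4.5e-05) and Serpine2 by 2.34 ± 0.27 (4.0e-05), while Igj (1.62 ± 1.01, 0.649) was not called. Of 21830 genes 2 (0.00916%) passed the test of a difference between populations, and 801 (3.67%) had an unadjusted p under 0.05. Libraries of both populations carry the same names in part, so they may come from the same animals.

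**Figure D4:**
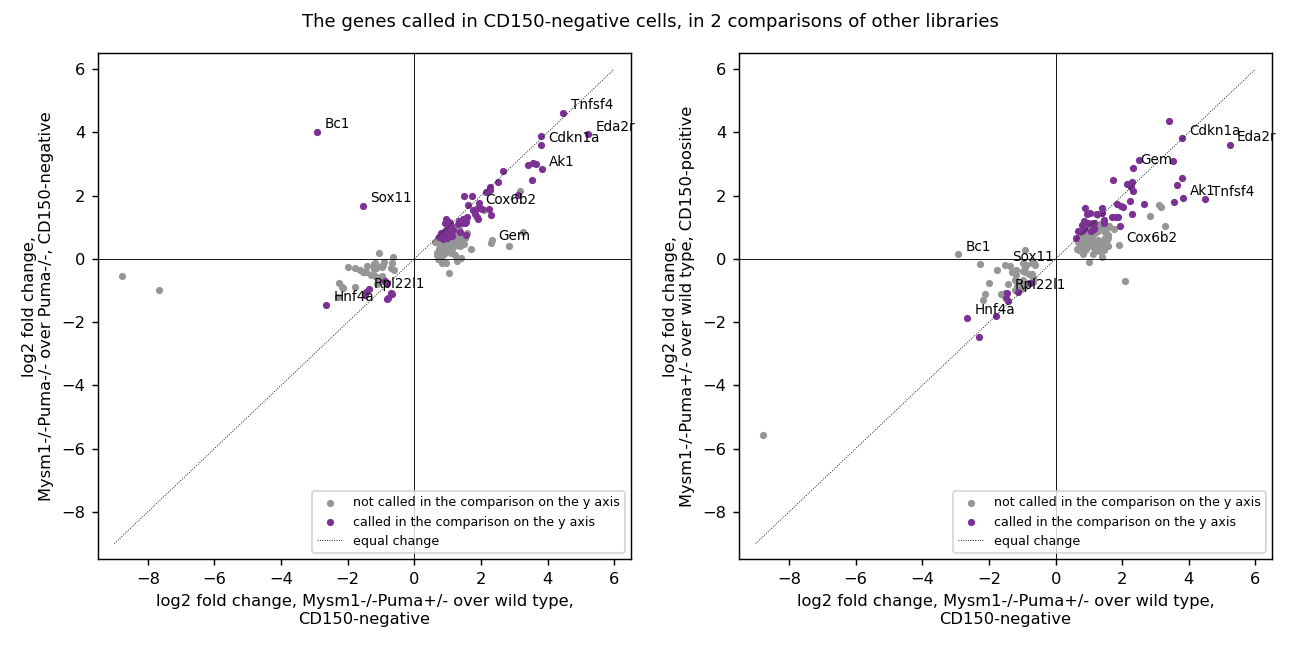
Log2 fold changes of the 184 called genes in CD150-negative cells, libraries labelled Mysm1-/-Puma+/- over wild type (horizontal axes), against their log2 fold changes for Mysm1-/-Puma-/- over Puma-/- in CD150-negative cells (left) and for Mysm1-/-Puma+/- over wild type in CD150-positive cells (right). Purple points were called in the other comparison too, the dotted line marks equal change, and 129 of the 135 risen genes lie above 0 on the left and 133 on the right.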

How the data were processed

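Each of the 29 libraries came with a table of raw counts for 23366 gene symbols, used as deposited by the authors. Per the labels' protocols, RNA was depleted of ribosomal RNA, made into stranded low-input libraries and sequenced as paired reads. Per the submitters' processing notes, tools were FastQC, Trimmomatic 0.33, TopHat2 2.0.9, Bowtie 1.0.0, featureCounts and edgeR in R 3.4.2, with build mm9. The strand setting, annotation and treatment of reads with several matches are not given in the sources used here, so reads of overlapping genes or near-identical copies may be misassigned. A deposited matrix of normalised CPM by the authors, with 12578 genes, served as an alternative (limma-trend on log2 of CPM plus 1).

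The 12 CD150-negative libraries of all 4 genotypes were fitted together with edgeR 4.0.16 in R 4.3.3 (filterByExpr, TMM, quasi-likelihood F test, Benjamini-Hochberg adjusted p under 0.05), which left 21168 genes. The CD150-positive fit had 17 libraries and 20944 genes, and the difference between populations was tested on all 29 libraries and 21830 genes. Standard errors are approximate, being the log2 fold change over the root of F. Receptor, marker and summed list levels are CPM of library totals. Counts of any 2 libraries in a group differed beyond sampling noise (chi-square over its degrees of freedom at least 20.75).

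Members and the 50 gene lists (1486 entries, 7 unmatched) were chosen with earlier results of these data known. Named were Mysm1 and Bbc3, the 15 largest rises and falls among called genes whose mean log2 CPM reached 1 and with groups that do not overlap, leaving out predicted and clone names, and called members of each list, at most 6. Other genes named, among them lymphoid and erythroid genes called without A3, were chosen after their values were seen. Gene places come from GENCODE M1 (177 of 184 called genes), promoters and the synonym of Beta-s from RefSeq GRCm38.p6. Alternatives were RLE scaling, DESeq2 1.42.0, limma 3.58.1 (voom and trend), no filter, only the compared groups, a block by library number, receptor background as a covariate and leaving out each library. Some genes of the lists are not reported here.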

Additional observations from a re-analysis of the deposited data

Results flagged for a closer look

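The response of 3 genes to Mysm1 loss differed between the Puma backgrounds in CD150-negative cells. Gem, a small GTPase, changed by 2.31 ± 0.19 with 1 Puma allele lost and by 0.49 ± 0.19 with both lost, a difference of 1.82 ± 0.27 (log2, SE; adjusted p = 0.0265). Sox11, a transcription factor, had 1.96, 1.84 and 1.67 CPM in A libraries and 5.27, 4.67 and 5.90 CPM in wild type (-1.53 ± 0.34), against 7.66, 7.47 and 5.28 CPM in libraries labelled Mysm1-/-Puma-/- and 1.36, 3.10 and 1.91 CPM in those labelled Puma-/- (1.68 ± 0.34). The difference was -3.21 ± 0.48 (adjusted p = 0.0274). Bc1, a small noncoding RNA known from neurons, had 0.645, 0.329 and 0.577 CPM in A libraries and 3.09, 2.03 and 6.63 CPM in wild type, against 4.41, 3.90 and 3.60 CPM in libraries labelled Mysm1-/-Puma-/- and 0.0714, 0.305 and 0.354 CPM in those labelled Puma-/-, and its difference was -6.94 ± 0.87 (adjusted p = 0.00726). Sox11 and Bc1 were called in opposite directions on the 2 backgrounds. With 1 Puma allele lost, the call of Sox11 (adjusted p = 0.0409) ended without any of the 6 libraries (0.0707 to 0.197) and that of Bc1 (0.022) without A1, A2, D2 or D4 (0.0537 to 0.212); with both lost, that of Sox11 (0.0161) ended without B1, B3, C2 or C5, while that of Bc1 (0.00239) passed without each of the 6 libraries of that background in turn. Without 1 of the 12 libraries the call of Gem ended for 9 of them (A1, A2, B1, B3, B5, C2, C5, D2 and D3), that of Sox11 without every library but A3 and C3 (0.053 to 0.205), and that of Bc1 without A2 (adjusted p = 0.0535) or B1 (0.0505).

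The response of 2 genes differed between the populations. Ak1 changed by 3.82 ± 0.17 in CD150-negative and 1.91 ± 0.22 in CD150-positive cells, a difference of 1.94 ± 0.27 (adjusted p = 0.00179), which passed without each of the 6 CD150-negative libraries in turn and ended without the 2 naming series P and W (0.0677). Cox6b2 changed by 1.91 ± 0.21 and 0.43 ± 0.18, a difference of 1.52 ± 0.26 (adjusted p = 0.0396), which ended without A2, A3, D3 or D4 (0.0934 to 0.277). It also ended without P and W (0.131) and with no filter on low counts (0.0977). With the block by library number neither difference passed (0.0666 for Ak1 and 0.15 for Cox6b2).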

How the results depend on the processing

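For Mysm1 loss in CD150-negative cells, 184 genes were called (135 higher, 49 lower). DESeq2 called 427 (290 and 137), limma voom 858 (522 and 336), limma-trend on the deposited CPM 297 (197 and 100) and a fit with receptor background as a covariate 396 (211 and 185), and leaving out 1 library gave 98 to 328. RLE scaling (194), no filter (201) and only the compared libraries (138) stayed within 1.5 times. On the Puma-null background 285 genes were called, DESeq2 627, voom 446, limma-trend 466 and the covariate 507, with 148 to 336 when a library was left out. In CD150-positive cells 95 were called and 244 by DESeq2, with 60 to 107. The difference between Puma backgrounds gave 3 calls (1 positive, 2 negative), DESeq2 70 (69 and 1), voom 63 (46 and 17), limma-trend 1 and the covariate 5 (1 and 4), with 0 to 23 when a library was left out (6 and 17 without A3). The difference between populations gave 2, both positive, DESeq2 14 (3 and 11), voom 9 (2 and 7), limma-trend 5 (3 and 2), no filter 1 and the covariate 3, 0 without P and W, and 1 to 2 when a library was left out. A replicate block by library number called 54 (45 and 9), 81 and 0 in the CD150-negative comparisons, 322 (89 and 233, against 78 and 17 without the block) in CD150-positive cells and 0 between populations; same-numbered libraries correlated from -0.457 to 0.345 in their deviations, so the numbers were not taken as pairs. Of the 184 genes, 183 were called with the covariate and 183 by DESeq2, 124 with only the compared libraries, 53 with the block and 51 (43 and 8) under every alternative. So the balance of directions turned over between settings for both differences, for CD150-positive cells with the block and, without A3 (156 and 172), for the CD150-negative comparison. The cause of these shifts was not tested. Genes at a few CPM rest on few reads, and a change there was detectable only if large.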
